A study of Mus musculus with 8 samples.

Results

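Class I molecules of the major histocompatibility complex (MHC) were followed through 10 genes: the chains B2m, H2-K1 and H2-D1, the peptide transport and loading genes Tap1, Tap2 and Tapbp, the immunoproteasome subunits Psmb8, Psmb9 and Psmb10, and the class I regulator Nlrc5. The genes were selected on their function, with the values of all 8 libraries and their changes between groups already known, and no threshold on any value enters the choice. Every level, change and call given below for these genes is therefore a description, and none is independent evidence that the genes differ. All 10 were found among the 39017 gene identifiers of the table, and all 10 passed the filter on low counts.

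A class I molecule shows the cell's own peptides to cytotoxic T cells. A heavy chain (H2-K1 or H2-D1) pairs with the light chain beta-2 microglobulin (B2m). The immunoproteasome, in which Psmb8, Psmb9 and Psmb10 take the place of the constitutive subunits Psmb5, Psmb6 and Psmb7, cuts proteins into peptides suited to class I. The transporter Tap1-Tap2 moves peptides into the endoplasmic reticulum, and tapasin (Tapbp) holds the empty class I molecule at the transporter. Nlrc5 acts at class I promoters, and interferons raise the transcription of most of these genes. Fibroblasts carry class I at the surface, as nearly all nucleated cells do.

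The cells were mouse embryonic fibroblasts (E13.5), labelled control or Mettl3 knockout. Mettl3 is the catalytic subunit of the enzyme that writes N6-methyladenosine (m6A) on mRNA. In the knockout, Cre recombinase was activated with 4-hydroxytamoxifen (500 nM, 48 h), and loss of Mettl3 and of m6A was examined after 7 days, per the labels. Whether the controls were also given 4-hydroxytamoxifen, and which promoter or strain the Cre came from, is not in the labels. Control total and knockout total RNA came from cells without stress. Control granule and knockout granule RNA came from cells given sodium arsenite (500 µM, 30 min), from which stress granules, the cytoplasmic bodies that collect stalled mRNA, were enriched by centrifugation. Fraction and stress changed together, so their effects cannot be told apart. Each of the 4 groups had 2 biological replicates, and all RNA was selected for poly(A).

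Total counts ranged from 67257220 to 123508539 per library, and 3 counts in the smallest were worth 0.0446 CPM (counts divided by library size). Mettl3 was at 25.4 and 24.9 scaled CPM in the control total libraries and at 6 and 7.35 in the knockout total libraries, and at 15.7 and 15.4 against 5.56 and 6.38 in the granule libraries, so it followed the labels in both fractions. The 2 knockout total replicates stood apart from each other, and which of them is unusual cannot be told from 2 libraries. The median absolute log2 ratio between the replicates, taken over 10261 genes that averaged 5 CPM or more, was 0.813 in knockout total, against 0.312 in control total, 0.134 in knockout granule and 0.101 in control granule. The ratio of replicate 1 to replicate 2 followed the GC content of the genes in both total RNA groups. Spearman's rho was -0.734 in knockout total and 0.764 in control total (across genes, which are not independent replicates). In control granule it was -0.155 and in knockout granule 0.0413. Fibroblast markers were present in every library (summed level of 8 genes 6028 to 8963 scaled CPM), although Pdgfra (1.39 to 3.47) and Thy1 (3.3 to 12.9) were low. The single markers were not stable. Between genotypes in granules, 6 of the 8 had positive and 2 negative changes. Col3a1 (log2 1.69), Pdgfrb (1.45) and Col1a1 (1.39) were called higher in the knockout, as defined below, and Vim (-1.34) lower. Of all 18952 genes tested, 1098 were called higher and 693 lower there.

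Promoter sequences of 8 of the 10 genes were found in RefSeq (build GRCm38.p6), and Tap2 and Nlrc5 were not in that table. Class I promoters are known for a compact control region, with a box bound by interferon regulatory factors and boxes bound by the RFX, CREB and NF-Y factors with which Nlrc5 works. Stretches of the 3 chain promoters are shown because the same boxes recur in them at the same spacing. Each is written 5′ to 3′ on the strand of the gene. Capitals mark TGACG and, 20 bases further, ATTGG (the reverse of the CCAAT box). In B2m and H2-K1 capitals also mark the letters AANNGAAA or their reverse complement, with the partly overlapping pair GAAA, 2 bases, GAAA in B2m, and in H2-K1 the letters GGGATTCCC.
B2m, chr2:122147534-122147668, plus strand: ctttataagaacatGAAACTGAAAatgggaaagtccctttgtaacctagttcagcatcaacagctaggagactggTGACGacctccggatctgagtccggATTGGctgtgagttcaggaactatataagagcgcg
H2-K1, chr17:34000348-34000463, minus strand: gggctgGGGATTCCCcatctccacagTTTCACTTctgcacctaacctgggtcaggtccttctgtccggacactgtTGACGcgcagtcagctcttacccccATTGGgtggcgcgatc
H2-D1, chr17:35262993-35263022, plus strand, inside an annotated exon: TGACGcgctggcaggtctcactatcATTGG

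The TGACG and ATTGG pair began 78 bases before the start in B2m, 41 in H2-K1 and 101 in H2-D1. Among the 250 bases before the start of 27025 genes, searched on both strands, 0.0925% (25 promoters) held this pair at this spacing, which was chosen after the sequences were seen. TGACG alone was in 17.9% of all promoters and in 5 of the 8 members, and CCAAT in 34.5% and in 6 of 8. GGGATTCCC was in 0.311% of promoters and, of the members, in H2-K1 and H2-D1. AANNGAAA was in 21.6% and in B2m, H2-K1 and H2-D1, and GAAA, 2 bases, GAAA in 3.04% and in B2m. The Tap1 and Psmb9 windows shared 275 of their 300 bases, since the RefSeq starts of these genes lie 226 bases apart on opposite strands. All distances to a start given here use RefSeq starts. These can differ from the ends of the gene spans given below, which come from another annotation, GENCODE. A match is a run of letters and shows no binding. No protein or m6A map was used here.

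Of the 10 genes, 7 lie in the MHC on chromosome 17 (GRCm38): Tapbp (33915899 to 33929292), H2-K1 (33996017 to 34000347), Psmb9 (34181987 to 34187764), Tap1 (34187553 to 34197225), Psmb8 (34197721 to 34201454), Tap2 (34203527 to 34216321) and H2-D1 (35262730 to 35267499). B2m lies on chromosome 2 (122147686 to 122153083), and Psmb10 (105935735 to 105938444) and Nlrc5 (94434356 to 94527272) on chromosome 8. Exons of Tap1 and Psmb9 overlap on opposite strands over 3.87% and 5.79% of their exonic bases, and 29.02% of Tapbp, 18.46% of Tap2 and 14.73% of Psmb8 overlap other genes. Whether counting used strand is not given in the sources used here, so reads in these stretches cannot be assigned to a strand. H2-K1 and H2-D1 share 8.79% and 14.32% of their 50-base words with other genes (0 and 4.64% of 100-base words), so their split from other heavy chains is uncertain. These shares are of reference transcripts. The MHC haplotype of the cells is not in the labels, so the shares do not bound the uncertainty.

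In unstressed control cells the order of the genes, per kilobase of the longest coding transcript, ran from the light chain to the regulator. B2m stood highest at 1302 ± 11.8 scaled CPM per kilobase (SD, n = 2), followed by H2-D1 at 316 ± 5.24 and H2-K1 at 271 ± 4.14. Tapbp followed at 143 ± 12.3, Psmb10 at 73.5 ± 8.87 and Tap1 at 46.7 ± 1.35. The lowest were Tap2 at 8.25 ± 0.124, Psmb8 at 7.98 ± 0.141, Psmb9 at 7.92 ± 0.386 and Nlrc5 at 5.55 ± 0.957. The 2 libraries of Psmb9 overlapped those of both Tap2 and Psmb8, while those of Tap2 lay just above those of Psmb8. The order of the lowest genes depends on the length used. With all exons of a gene joined, Psmb8 has 3381 bases in place of 1628, and Psmb9 3660 in place of 1352. Nlrc5 has 8493 in place of 7578, and per that length it ranks above Psmb8 and Psmb9. Levels below are scaled CPM (CPM after trimmed-mean scaling between libraries) and compare libraries, not genes.

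The light chain B2m was at 1127 and 1113 in control total, 371 and 370 in control granule, 28534 and 2205 in knockout total, and 1340 and 1122 in knockout granule. Both knockout total libraries lay above both control total libraries, but replicate 1 held 12.9 times as much B2m as replicate 2, and in that library B2m took 2.5699% of all counts, against 0.2313% in replicate 2 and 0.1139% and 0.1207% in control total. The granule groups did not overlap either, with the knockout above the control. B2m has a GC content of 41.2%, the lowest of the 10 genes, and over 580 genes within 1 percentage point of it the log2 ratio of replicate 1 to replicate 2 had a median of 1.26 (5th to 95th percentile 0.02 to 2.25), against 3.69 for B2m. The part of GC content in the B2m level was not tested beyond the removal of a GC trend, which lowered the knockout to control change in total RNA from 3.78 to 2.65 on the log2 scale. Without replicate 1 that change was 0.98, and without replicate 2 it was 4.78.

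The heavy chain H2-K1 was at 434 and 444 in control total, 76.4 and 73.2 in control granule, 710 and 1783 in knockout total, and 939 and 678 in knockout granule. H2-D1 was at 672 and 656, 102 and 99, 779 and 1917, and 1111 and 824 in the same order. For both chains the control granule libraries were the lowest, and the knockout granule libraries lay above the control total libraries. In bulk RNA, a change in the number of cells that express a gene cannot be told apart from a change in RNA per cell. H2-K1 and H2-D1 together, per length, were exceeded by B2m by a factor of 2.23 and 2.21 in control total, 4.5 and 4.66 in control granule, and 1.41 and 1.61 in knockout granule. In knockout total the factor was 41 in replicate 1 and 1.27 in replicate 2. The ratio of H2-K1 to H2-D1, per length, was 0.839 and 0.878 in control total and 0.971 and 0.96 in control granule, against 1.18 and 1.21 in knockout total and 1.1 and 1.07 in knockout granule. All 4 knockout libraries thus stood above all 4 control libraries, including both knockout total replicates, which otherwise stood apart from each other. The labels give neither the strain nor the MHC haplotype of the cells, and whether these differ between control and knockout was not tested.

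**Figure D1:**
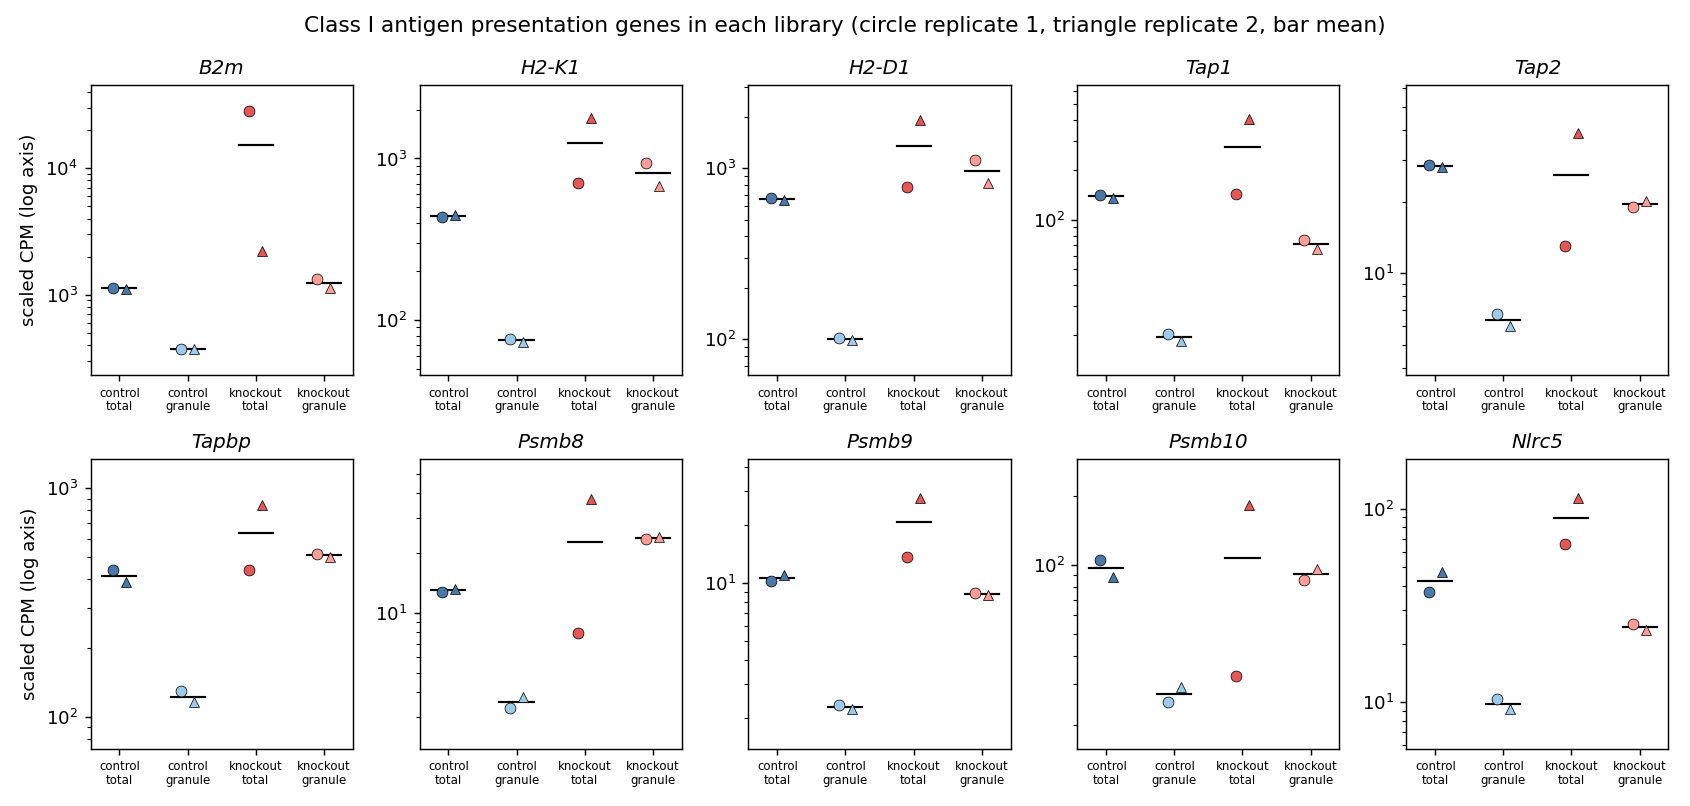
Scaled CPM on a log axis for each of the 10 genes in each library, by group, with replicate 1 as a circle, replicate 2 as a triangle and the mean as a bar. The control granule libraries are the lowest for all 10 genes, and the 2 knockout total libraries lie far apart, with replicate 1 above replicate 2 for B2m and below it for the other 9.

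The transporter subunit Tap1 was at 141 and 135 in control total, 20.4 and 18.4 in control granule, 142 and 408 in knockout total, and 75.8 and 66.2 in knockout granule. Its partner Tap2 was at 28.7 and 28.1, 6.74 and 5.98, 13 and 38.8, and 19.1 and 20.1. In total RNA, Tap1 of the knockout lay above the control by a narrow margin in replicate 1, and Tap2 straddled the control. The per-length ratio of Tap1 to Tap2 was 5.71 and 5.6 in control total and 3.53 and 3.59 in control granule. In the knockout it was 12.7 and 12.3 in total RNA and 4.62 and 3.84 in granules. The knockout total replicates gave nearly the same ratio, although the level of each gene differed between them. Tapasin, Tapbp, was at 438 and 388, 129 and 116, 436 and 840, and 517 and 499 in the order used above. Its knockout granule libraries lay above both control groups, and its knockout total libraries overlapped control total.

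The immunoproteasome subunit Psmb8 was at 12.8 and 13.2 in control total, 3.32 and 3.79 in control granule, 7.95 and 37.3 in knockout total, and 23.6 and 24 in knockout granule. Psmb9 was at 10.3 and 11.1, 2.35 and 2.23, 13.7 and 27.6, and 8.86 and 8.66. Psmb10 was at 105 and 88.2, 25.2 and 29.2, 32.7 and 181, and 86 and 95.7. All 3 were lowest in control granule, with the knockout granule libraries above them. Psmb8 and Psmb10 were below control total in knockout total replicate 1 and above it in replicate 2. For these 2 genes the gap between the replicates (log2 -2.23 and -2.47) lay outside the 5th to 95th percentile of genes of like GC content (-2.14 to 0.55 and -2.16 to 0.48).

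Each inducible subunit competes with a constitutive one, so its share of the pair was taken within each library, per length of the longest coding transcript. Such a share does not depend on scaling, but it does depend on the length used. Psmb8 made up 4.91% and 6.07% of Psmb8 plus Psmb5 in control total, 2.51% and 2.5% in control granule, 34.3% and 15.8% in knockout total, and 19.3% and 20.2% in knockout granule. Psmb9 made up 1.84% and 2.64% of Psmb9 plus Psmb6, 0.886% and 0.718%, 11.2% and 8.57%, and 2.99% and 2.95%. For these 2 pairs the knockout share lay above the control share in both fractions, in both knockout total libraries. Psmb10 made up 24.9% and 23.5% of Psmb10 plus Psmb7 in control total and 8.22% and 8.65% in control granule, against 27.6% and 31.6% in knockout granule. Its knockout total shares, 16.2% and 47.6%, lay on either side of the control. None of Psmb5, Psmb6 and Psmb7 was called in any comparison, but Psmb5 was at 8.41 and 110 in the knockout total libraries, so the high Psmb8 share in replicate 1 goes with a low constitutive partner. Psmb6 was at 326 and 241 in control total and at 64.3 and 174 in knockout total, so the Psmb9 shares there also go with less of the partner, and all 3 partners had negative changes in that comparison (-1.25 for Psmb6, -1.08 for Psmb5 and -0.71 for Psmb7), none called. With the length of all exons of a gene joined, the control total shares became 2.43% and 3.01% for Psmb8 and 42.9% and 40.9% for Psmb10, and the order of the libraries within each pair stayed the same because each pair shifts by a constant factor.

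**Figure D2:**
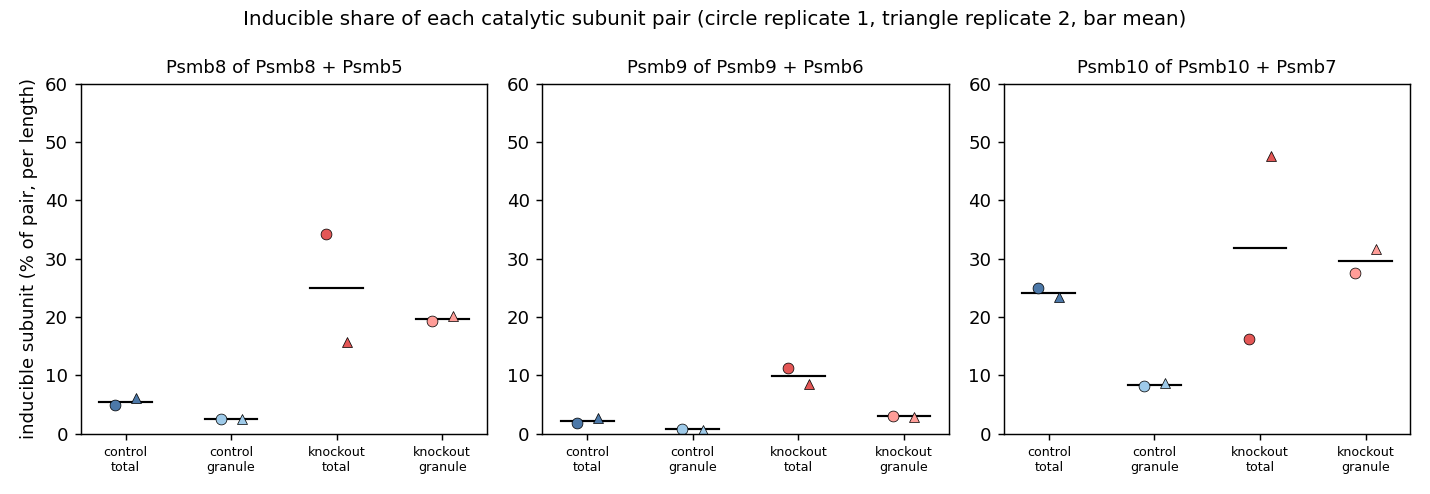
Share of each catalytic pair held by the inducible subunit (%, from per-length levels), by library and group, with replicate 1 as a circle, replicate 2 as a triangle and the mean as a bar. Control granule libraries have the lowest share in all 3 pairs, and knockout granule libraries lie above control granule libraries in all 3.

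The regulator Nlrc5 was at 37 and 47.2 in control total, 10.4 and 9.23 in control granule, 65.3 and 113 in knockout total, and 25.5 and 23.7 in knockout granule. It was higher in knockout than in control in both fractions without overlap, and lower in granules than in total RNA in both genotypes without overlap. Its knockout granule libraries lay below its control total libraries, where those of H2-K1 and H2-D1 lay above.

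In control cells, the granule fraction held less of these mRNAs than total RNA. Genes are said to be called where the adjusted p over the 18952 genes tested was under 0.05 (edgeR's quasi-likelihood test, Benjamini-Hochberg). Of the 10 genes 7 fell, with adjusted p between 0.013 and 0.032 by that edgeR test, while 4.17% of all genes tested were called lower and 5.89% higher. The changes were -2.83 (SE 0.47) for Tap1, -2.72 (0.43) for H2-D1, -2.55 (0.44) for H2-K1, -2.22 (0.37) for Psmb9, -2.16 (0.47) for Tap2, -2.1 (0.33) for Nlrc5 and -1.76 (0.34) for Tapbp on the log2 scale. Psmb8 at -1.87 (0.61), Psmb10 at -1.82 (0.65) and B2m at -1.6 (0.89) did not pass. All 10 had groups that did not overlap, lower in granules, as had 37.3% of all genes tested. The median change of the 10 genes was -2.13, beside -0.06 for all genes. The calls did not hold when any 1 of the 4 control libraries was left out, a fit in which the lone library is assumed to vary like the others. In at least 1 of these fits the loss of calls extended to all genes tested. The median of the 10 stayed between -2.2 and -2.01 when any 1 library was left out. Without either knockout granule library 4 were called (363 and 401 genes called in all, against 1906 with every library). Without either knockout total library all 10 were called, in fits that called 8118 and 8040 genes.

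In knockout cells 4 of the 10 genes were lower in granules than in total RNA and called, with 8.47% of all genes called lower and 9.17% higher. B2m fell by 3.64 (SE 0.96), Tap1 by 1.95 (0.45), Nlrc5 by 1.86 (0.33) and Psmb9 by 1.24 (0.36) on the log2 scale. The same 4 were those whose groups did not overlap, as in 26.5% of all genes. The other 6 had values from -0.62 (0.42) for H2-K1 to 0.07 (0.59) for Psmb8, and the median of the 10 was -0.55 beside 0.04 for all genes. This comparison rested on knockout total: all 10 were called lower without its replicate 1 (6802 genes called in all), and 4 lower with 2 higher, Psmb8 and Psmb10, without its replicate 2 (9707 genes called). A fit of the knockout groups alone called none of the 10 and no gene, with 4 of the 10 at an unadjusted p under 0.05. Fewer or none of the 10 were called without a knockout granule or a control library. Such a fit leaves 1 library in a group, and the genes called in all also changed with the library left out. The median of the 10 ran from -1 to 0.08 over the fits that left out 1 library.

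Between genotypes in granules, 7 of the 10 genes were called higher in the knockout, with adjusted p between 0.0084 and 0.044 by edgeR's quasi-likelihood test, where 5.79% of all genes were called higher. H2-K1 was 10.8-fold higher (log2 3.43, SE 0.46) and H2-D1 9.62-fold (3.27, SE 0.44). Psmb8 was 6.68-fold higher (2.74, SE 0.63), Tapbp 4.16-fold (2.06, SE 0.34), Psmb9 3.82-fold (1.93, SE 0.37), Tap1 3.66-fold (1.87, SE 0.45) and Nlrc5 2.51-fold (1.33, SE 0.32). Psmb10 at 1.74 (0.65), B2m at 1.73 (0.89) and Tap2 at 1.63 (0.47) did not pass. In all 10 the knockout granule libraries lay above the control granule libraries, as in 40.4% of all genes, and the median change was 1.9 beside 0.08 for all genes. A fit of the 2 granule groups alone, without the scattered total libraries, called all 10 higher and 10359 genes in all. With a block for the replicate number 4 were called, although the numbers did not pair the libraries. The calls did not hold when any 1 granule library was left out, and in at least 1 of these fits this extended to all genes tested. The median of the 10 stayed between 1.81 and 1.95 when any 1 library was left out. Without either control total library 3 were called (830 and 737 genes in all, against 1791 with every library). Without either knockout total library all 10 were called, in fits that called 7797 and 7834 genes.

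Between genotypes in total RNA, none of the 10 was called (0.274% of all genes were called higher). By the same edgeR test 5 were at an unadjusted p under 0.05, as were 4705 of all 18952 genes, and the DESeq2 Wald test called 3 of the 10 and 2437 genes in all. The values were 3.78 (SE 0.97) for B2m, 1.51 (0.42) for H2-K1, 1.08 (0.32) for Nlrc5, 1.02 (0.41) for H2-D1, 1 (0.44) for Tap1, 0.95 (0.35) for Psmb9, 0.8 (0.59) for Psmb8, 0.63 (0.33) for Tapbp, 0.15 (0.63) for Psmb10 and -0.13 (0.45) for Tap2. In 6 of the 10, B2m, H2-K1, H2-D1, Tap1, Psmb9 and Nlrc5, both knockout total libraries lay above both control libraries, as in 24.4% of all genes. The median was 0.97 beside 0.02 for all genes. Without knockout total replicate 1, 9 were called higher and Tap2 was at 0.45 (1102 genes called in all). Without replicate 2, B2m, H2-K1 and Nlrc5 were called higher and Tap2, Psmb8 and Psmb10 lower (9627 genes called).

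**Figure D3:**
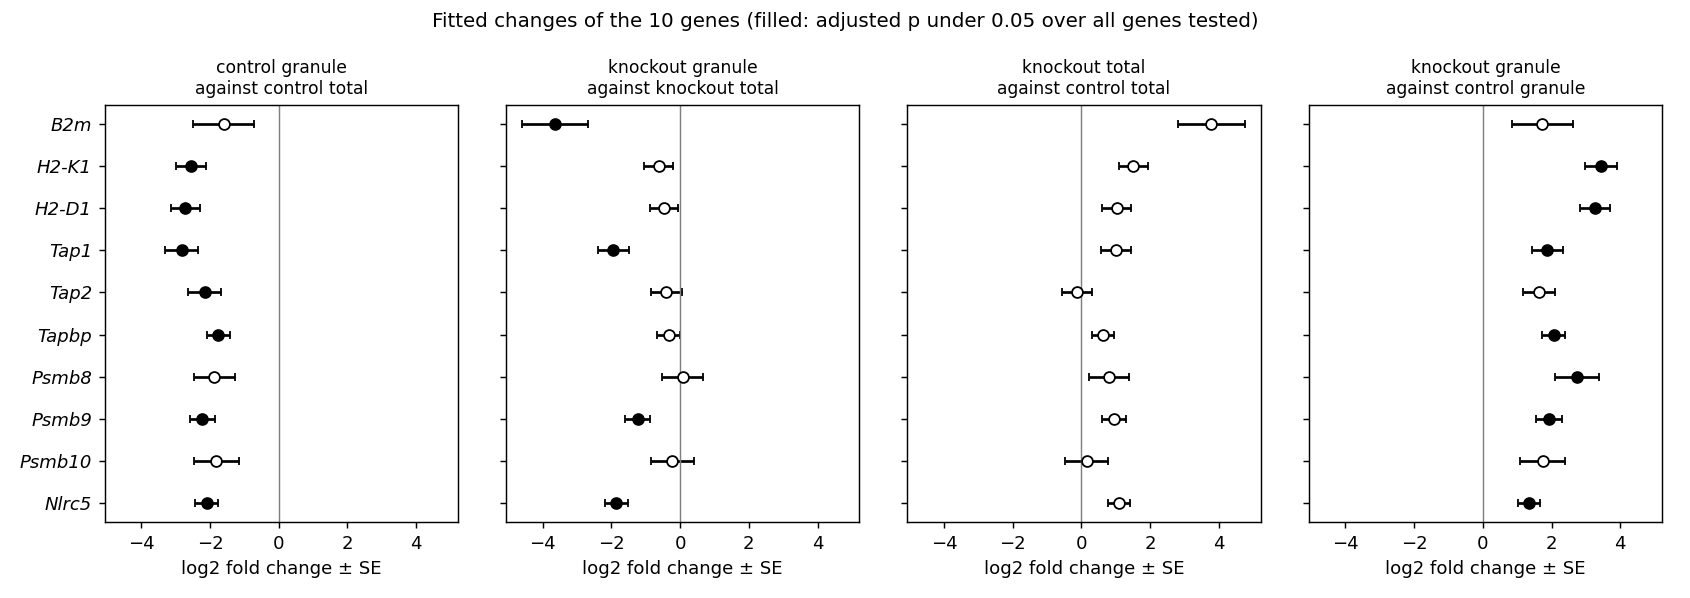
Log2 fold changes of the 10 genes with their SE in the 4 comparisons, filled where the adjusted p over all genes was under 0.05. All 10 lie below 0 in control granule against control total and above 0 in knockout granule against control granule, while knockout total against control total has no filled point.

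Whether the granule to total change itself differed between genotypes was taken as the interaction. None of the 10 was called higher, nor lower (0.401% of all genes were called higher), by edgeR's quasi-likelihood test. At an unadjusted p under 0.05 there were 5 of the 10 and 4898 of all genes, and DESeq2 called 3 of the 10 and 2724 genes in all. The values were largest for H2-D1 at 2.24 (SE 0.58), Psmb8 at 1.94 (0.84) and H2-K1 at 1.93 (0.59), smallest for Nlrc5 at 0.24 (0.45), and negative for B2m at -2.05 (1.24), with a median of 1.51 beside 0.09 for all genes. Without knockout total replicate 1, 6 were called higher (H2-K1, H2-D1, Tap2, Tapbp, Psmb8 and Psmb10), and Nlrc5 (-0.11), Tap1 (0.29), Psmb9 (0.55) and B2m (0.74) were not. Without replicate 2, 8 were called higher and B2m lower. These fits called 3712 and 9349 genes in all, against 98 with every library. The knockout to control differences in granules and in total RNA, and the granule to total differences of the genotypes, share libraries and are given side by side only.

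Across the 8 libraries, each gene was set beside the mean standardised log2 level of the other 9. Pearson's r was 0.987 for Psmb9, 0.985 for Tapbp, 0.982 for H2-D1, 0.97 for H2-K1, 0.952 for Tap1, 0.911 for Nlrc5, 0.906 for Tap2, 0.878 for Psmb8, 0.803 for Psmb10 and 0.51 for B2m. Without knockout total replicate 1, B2m came to 0.996 and Psmb10 to 0.991, so the low value of B2m rested on that library. These r describe 4 groups of 2 libraries, with depth and scaling in common. Among 9991 other genes that averaged 5 CPM or more, the 5 most like the mean of the 10 were Dhx58 (r = 0.998), Uba7 (0.995), Zkscan14 (0.995), Isg15 (0.994) and Parp10 (0.993). Isg15, a ubiquitin-like protein induced by interferon, was at 298 and 385 scaled CPM in control total, 33.3 and 31.3 in control granule, 498 and 2016 in knockout total, and 453 and 459 in knockout granule. Dhx58, an RNA helicase of the same response, was at 35.1 and 37, 4.56 and 3.71, 45.4 and 132, and 36.6 and 32.6. Both genes were chosen for their likeness to the 10 over these same libraries. That they were lowest in control granule follows from this choice and is no separate result.

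The other class I heavy chains (15 tested) were counted in the same comparisons. Between genotypes in granules 2 rose, H2-Q4 by 2.81 (SE 0.39) and H2-Q7 by 1.17 (0.28), and none fell. The median of the 15 was 0.9. H2-Q4 was at 52.7 and 63 in control total, 11.2 and 11.5 in control granule, 410 and 196 in knockout total and 90.5 and 68 in knockout granule. In control granules against total 4 fell and none rose, with a median of -1.2: H2-Q4 by 2.36, H2-Q7 by 1.43, H2-Q6 by 1.2 and H2-Bl by 5.8, the last named after its value was seen. In knockout granules against total H2-Q4 and H2-Bl fell. H2-Bl was at 3.19 and 4.1 in control total, 0.0582 and 0.0703 in control granule, 1.11 and 2.76 in knockout total, and 0.0728 and 0.0509 in knockout granule. Its granule values lay close to the level that 3 counts give in the smallest library. In total RNA none was called between genotypes, with H2-Q4 at 2.39 (SE 0.38). H2-T22 stood at -1.21 in control granule against total and 1.58 in knockout against control granule, not called in either.

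The genes of peptide trimming and loading in the endoplasmic reticulum and cytosol (11 tested) were counted in the same comparisons. Between genotypes none passed in granules (median -0.17) or in total RNA (median 0.41). The abundant loading chaperone Calr was at 1901 and 1499 in control total, 1228 and 1222 in control granule, 1339 and 1020 in knockout total and 991 and 968 in knockout granule. In control cells Npepps, a cytosolic aminopeptidase, rose in granules by 1.75 (SE 0.25) and Tapbpl, a relative of tapasin, fell by 1.37. In knockout cells Npepps rose by 1.49, and Tapbpl, Uggt1, Erap1 and Lap3 fell, with a median of -0.98 for the 11. Of all genes tested, 8.47% were called lower there and 9.17% higher. Erap1, the aminopeptidase that trims class I peptides, fell by 2.39 (0.51) there. Erap1 was at 116 and 37.6 in knockout total and 15.2 and 14.1 in knockout granule. In control total it was at 11.8 and 17.4, and in control granule at 11.8 and 10.9. Tapbpl, Uggt1, Erap1 and Lap3 were named after their values were seen.

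Of the proteasome activator and assembly genes (5 tested), Psme1, a subunit of the interferon-inducible activator, was called higher between genotypes in granules at 1.35 (SE 0.26), at 39.6 and 40.8 in the control and 97.1 and 108 in the knockout. It fell in control granules against total by 1.26, while Psme4, another activator, rose by 2.12, and in knockout cells Psme3 fell by 2.16. Psme3 was at 482 and 167 in knockout total and 75.6 and 69.9 in knockout granule. Its control levels were 168 and 176 in total RNA and 117 and 129 in granules. Of the other 20S core subunits (11 tested), none was called between genotypes in either fraction (medians -0.34 in granules and -0.25 in total RNA). In control granules against total Psma1, named after its value was seen, rose by 0.91.

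Among genes of transcription control (13 tested), Stat2 and Irf9 take part in the response to type I interferon. In control granules against total Irf9 fell by 3.23 (SE 0.27) and Stat2 by 2.99 (0.25), and no other of the 13 was called. Between genotypes in granules Stat2 rose by 2.53 (0.25) and Irf9 by 2.36 (0.27). In total RNA Stat2 alone rose, by 1.59 (0.24, adjusted p = 0.041 by edgeR's quasi-likelihood test). Stat2 was at 148 and 181 in control total, 21.2 and 20.2 in control granule, 515 and 477 in knockout total and 119 and 119 in knockout granule, so the knockout total replicates were close for this gene. In knockout granules against total Stat2, Irf9, Irf2 and Rfx5 fell (Irf2 and Rfx5 named after their values were seen), Stat2 by 2.06. The medians of the list stayed nearer 0, at -0.27 and -0.63 for granule against total in control and knockout, and 0.35 and -0.11 for knockout against control in total RNA and in granules.

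Of the interferon and receptor genes (9 tested), none was called between genotypes (medians 0.51 in total RNA and 0.35 in granules). Jak1 was at 91.6 and 124 in control total, 160 and 146 in control granule, 197 and 141 in knockout total and 141 and 143 in knockout granule. Ifnb1, interferon beta, named after its value was seen, was called lower in granules in both genotypes. It was at 0.485 and 0.604 in control total, 0.647 and 1.63 in knockout total, and 0.155 and 0.0814 in knockout granule, and in control granule it was at 0.0194 and 0.0176, under the level that 3 counts give in the smallest library. Ifnar2, named after its value was seen, fell by 1.02 in knockout granules against total.

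**Figure D4:**
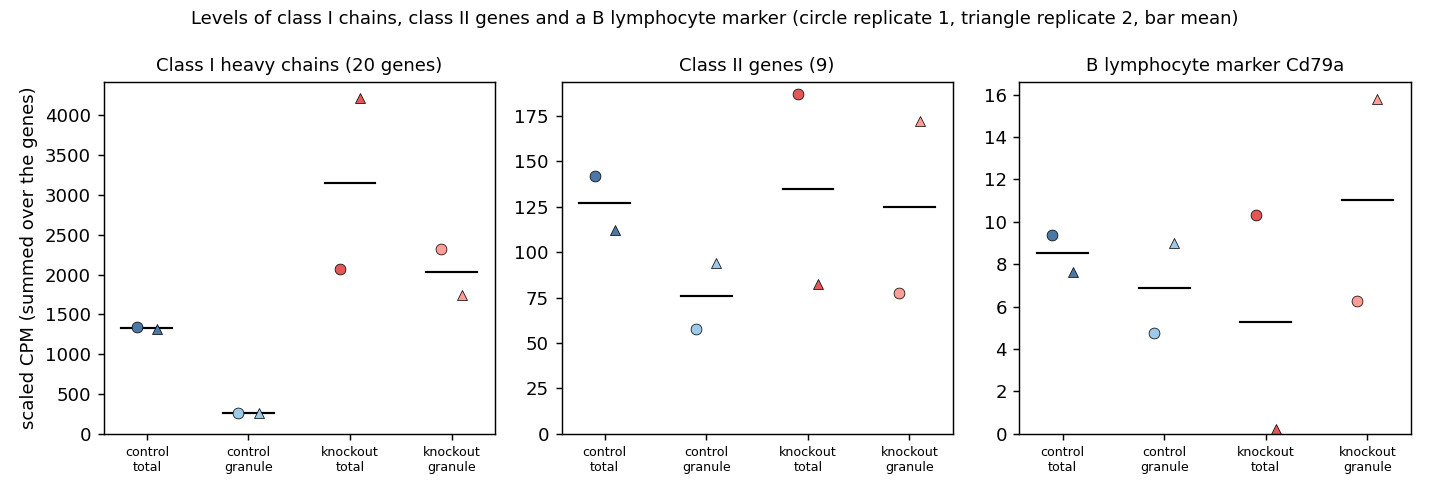
Summed scaled CPM of 20 class I heavy chain genes, of 9 class II genes, and scaled CPM of the B lymphocyte marker Cd79a, by library and group, with replicate 1 as a circle, replicate 2 as a triangle and the mean as a bar. The class I sum separates control granule (264 and 261) from the other groups, while the class II sum and Cd79a vary between replicates of a group.

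Class II molecules, made mainly by professional antigen-presenting cells, were low. Their summed level over 9 genes was 142 and 112 in control total, 57.6 and 93.9 in control granule, 187 and 82.5 in knockout total, and 77.6 and 172 in knockout granule, and none of the 9 was called between genotypes (medians -0.74 in total RNA and 0.74 in granules). H2-DMb1, named after its value was seen, fell by 1.6 in control granules against total. The class II chain H2-Ab1 was set beside Cd79a, a marker of B lymphocytes. It was at 21.5 and 3.07 in knockout total and at 11.9 and 30.3 in knockout granule, where Cd79a was at 10.3 and 0.208, and at 6.26 and 15.8. In control total Cd79a was at 9.4 and 7.63 and in control granule at 4.74 and 8.99. Not all genes of the 2 lists varied with Cd79a. In knockout total H2-Eb1 (18.4 and 2.35) and H2-Aa (15.2 and 2.67) did. Cd74, the class II gene with the highest mean level, was at 117 and 68.6 there. The lymphocyte markers Cd3e and Cd3d, named after their values were seen, were at 2.89 and 3.98, and at 2.67 and 2.96. The summed class I heavy chains were at 2073 and 4217 in knockout total and at 2324 and 1745 in knockout granule. The part of B lymphocytes in these levels was not tested.

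Markers of other cell types were summed in the same way. The summed level of 7 lymphocyte markers was between 12.2 and 26.6, with Nkg7 and Klrb1c at 0 in control granule replicate 2. It was 12.2 and 14.5 in control granule and 14.6 and 26.6 in knockout granule. The 8 macrophage markers summed to 58.2 to 84.3 over all libraries, with 59.9 and 58.2 in control granule and 69.3 and 70.4 in knockout granule, and none was at 0. The 5 epithelial markers, of which Krt18 made up most, ranged from 74.2 to 744 and were lowest in knockout total. Endothelial markers (6.35 to 20.5) and muscle markers (2.36 to 7.91, Myod1 at 0 in some libraries) were low throughout. Mitochondrially encoded RNA took 0.59% to 0.881% of counts in the control libraries and in knockout total replicate 2, and 6.156% to 8.808% in the other 3 knockout libraries. The part of these cell types and of mitochondrial RNA in the class I changes was not tested.

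The longest coding transcripts were also searched, on the sense strand, for GGACT, a common form of the m6A consensus. The number per kilobase was 3.07 for Psmb8, 2.37 for Tap1, 2.29 for Psmb10, 1.9 for H2-D1, 1.85 for H2-K1, 1.74 for Tap2, 1.58 for Nlrc5, 1.38 for Tapbp, 1.16 for B2m and 0.74 for Psmb9, beside a median of 1.05 (quartiles 0.652 and 1.5) over 10059 genes. B2m and Psmb9 held 1 match each. The letters show no methylation.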

How the data were processed

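Poly(A) RNA of 8 libraries (4 groups of 2) was sequenced with Illumina chemistry (labels' protocols). The authors deposited raw counts per Ensembl gene, 1 column per library and unpooled. The submitters' processing notes name STAR, DESeq2 and GRCm38/mm10. The counting program, strand setting and annotation release are not given in the sources used here. Names, lengths and GC content came from GENCODE M21 (GRCm38), which matched 37693 of 39017 identifiers. Unmatched ones held 0.167% to 0.221% of counts.

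Counts were fitted in R 4.3.3 with edgeR 4.0.16 (quasi-likelihood F-test, robust, trimmed-mean scaling, expression filter) in 1 model with a mean per group over 8 libraries. The fit was run on simulated data with known changes, with the same spread in all libraries and no GC trend. That run does not show how the fit behaves with replicates as unlike as those of knockout total. P-values were adjusted over 18952 genes (Benjamini-Hochberg). SE came from the F statistic. Log2 CPM used a prior count of 2. DESeq2 1.42.0, other scalings and filters, a replicate block, removal of the GC trend (lowess, span 0.3), fits of the compared groups only and leaving out each library were alternatives. Genes and lists were chosen with earlier results of these data known. The 5 genes most like the members were named by Pearson's r. Of the other pathway lists, up to 4 genes each could be named by highest mean CPM. Not every gene within this rule is named above. Rela, Nfkb1, Canx, Pdia3, Pomp and Ifnar1 are among those left out, and none of these was called in any comparison, so the naming leaned to called genes. Genes outside that rule are marked as named after their values were seen. One gene each of the transcription control and lymphocyte lists is not reported here.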

Additional observations from a re-analysis of the deposited data

How the results depend on the processing

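With 2 libraries per group the counts of called genes depended on the settings more than the medians did. The members called for knockout granule against knockout total, 4 as reported, were 2 with a filter at a mean of 5 CPM, 1 with the replicate block and 0 in a fit of only those groups, but 6 with the GC trend removed and 5 with the GC trend removed and the replicate block. For knockout total against control total, 0 as reported, they were 5 with no filter beyond 1 count, 6 with the GC trend removed, 5 with the GC trend removed and the replicate block, and 3 by the DESeq2 Wald test. For knockout granule against control granule, 7 as reported, the replicate block gave 4. For the interaction, 0 as reported, no filter gave 6, GC trend removal 1 and DESeq2 3. The genes called in all changed with the settings too. They ranged from 0 to 6133, 0 to 3407, 670 to 10359 and 0 to 3476 in these comparisons, in the order given. These member counts are therefore not a result about the members alone. The cause was not tested.

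The median change in control granule against total, -2.13 as reported, was -2.36 with upper-quartile scaling, -2.26 with library size alone and with the 5 CPM filter, -1.88 with the GC trend removed and -1.86 with the GC trend removed and the replicate block. That of knockout against control granule, 1.9 as reported, was 2.05 with upper-quartile scaling, 1.99 with library size alone, 1.82 with no filter, 2.08 with the 5 CPM filter, 1.83 with the GC trend removed and 1.82 with the block as well. Upper-quartile scaling moved the median of all genes from -0.06 to -0.29 in the first and from 0.08 to 0.23 in the second, and from 0.09 to 0.33 in the interaction.

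Leaving out each library in turn gave 0 to 10 members called in control granule against total, in knockout granule against total and in knockout against control granule, and 0 to 9 in knockout against control total and in the interaction. The medians ran from -2.2 to -2.01, -1 to 0.08, 1.81 to 1.95, 0.26 to 1.4 and 0.92 to 2.19 in that order. Without knockout total replicate 1 Psmb8 was at -0.66 in knockout granule against total, and without replicate 2 Psmb10 was at 1.35 there. In knockout against control total Psmb8 was at 1.52 and Psmb10 at 0.91 without replicate 1, and at -0.6 and -1.45 without replicate 2.

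Deviations of same-numbered libraries correlated between -0.254 and 0.095, so the numbers were not taken to pair them. The replicate block gave 5, 1, 0, 4 and 0 members called in control granule against total, knockout granule against total, knockout against control total, knockout against control granule and the interaction. With the knockout total numbers exchanged, the block called 94 genes and 0 members in knockout against control total, against 0 genes with the block as labelled and 78 without it. Over all genes tested, the alternatives other than leaving out a library called 581 to 7354, 0 to 6133, 0 to 3407, 670 to 10359 and 0 to 3476 genes in these 5 comparisons, against 1906, 3343, 78, 1791 and 98 as reported.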
